A study of Homo sapiens with 36 samples.

Results

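A549 is a non-small cell lung cancer line that the series labels as having wild-type (WT) EGFR. What is described here is its transcriptome without an aptamer, set against those of the 3 other lung cancer lines of the series under the same condition. The members were chosen by label: 3 A549 vehicle libraries against 9 vehicle libraries of H1975, H3255 and H820, 12 of the 36 libraries in all. Of 66366 named genes, 16765 had a mean of at least 1 FPKM (fragments scaled to gene length and to library size) in at least 1 line and were tested. A gene was called A549-specific only when it differed in the same direction from each of the other 3 lines.

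Per the labels, H1975 carries EGFR L858R with T790M, H3255 carries L858R, and H820 carries Ex19del with T790M. All 4 lines received vehicle (DPBS with magnesium) for 24 h in low-serum medium. A549 alone was kept in DMEM, with RPMI used for H1975, H3255 and H820, so the line and its medium cannot be told apart. Each line comes from a different tumour and is 1 established line, so EGFR genotype, medium and every other feature of its background vary together. The series tested an EGFR-binding aptamer, MinE07, and a control aptamer, C36. The libraries of those treatments were used here only to look at the same genes in RNA that had not entered the calls.

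A549 is known to carry loss-of-function mutations of KEAP1, STK11 and SMARCA4, and a deletion of CDKN2A. KEAP1 is the adaptor that marks the transcription factor NRF2 (gene NFE2L2) for degradation. Without it, NRF2 binds antioxidant response elements and drives genes of glutathione synthesis, quinone and aldehyde detoxification and NADPH supply. STK11 encodes LKB1, a kinase upstream of AMPK and the salt-inducible kinases. NKX2-1 is the transcription factor that specifies lung epithelium and drives surfactant genes, and HNF4A does similar work in liver and gut. Interferons are secreted after sensors such as RIG-I and MDA5 bind RNA, and act through a complex that holds STAT2 and IRF9 at interferon-stimulated response elements. These are background facts and not results of these files.

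Promoters of 6 A549-specific genes are shown first because they hold the letters that the NRF2 and interferon-activated factors are known to bind. They are RefSeq sequences of 300 bases around the gene start on GRCh38.p14, printed in the direction of the gene, with each match in capitals. The antioxidant response element core was searched as TGACNNNGC on both strands, and GPX2, CYP4F11, PGD and GCLM are the 4 A549-specific NRF2 targets of largest difference among those with a match.
GPX2: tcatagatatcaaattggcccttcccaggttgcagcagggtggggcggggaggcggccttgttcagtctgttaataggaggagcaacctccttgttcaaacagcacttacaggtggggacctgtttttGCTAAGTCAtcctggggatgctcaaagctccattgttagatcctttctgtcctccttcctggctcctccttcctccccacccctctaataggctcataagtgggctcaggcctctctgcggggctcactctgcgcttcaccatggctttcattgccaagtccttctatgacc
CYP4F11: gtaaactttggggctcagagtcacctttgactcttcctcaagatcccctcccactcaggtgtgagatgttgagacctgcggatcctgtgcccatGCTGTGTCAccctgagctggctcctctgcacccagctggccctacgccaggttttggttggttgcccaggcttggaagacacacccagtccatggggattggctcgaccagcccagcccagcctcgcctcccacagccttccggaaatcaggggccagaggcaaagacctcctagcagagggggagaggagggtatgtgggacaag
PGD: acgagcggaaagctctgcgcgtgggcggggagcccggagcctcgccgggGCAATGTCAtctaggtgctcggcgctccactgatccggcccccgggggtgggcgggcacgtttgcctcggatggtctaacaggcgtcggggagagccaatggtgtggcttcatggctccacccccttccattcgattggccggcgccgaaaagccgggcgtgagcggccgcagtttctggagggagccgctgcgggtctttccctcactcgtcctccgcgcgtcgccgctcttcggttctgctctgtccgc
GCLM: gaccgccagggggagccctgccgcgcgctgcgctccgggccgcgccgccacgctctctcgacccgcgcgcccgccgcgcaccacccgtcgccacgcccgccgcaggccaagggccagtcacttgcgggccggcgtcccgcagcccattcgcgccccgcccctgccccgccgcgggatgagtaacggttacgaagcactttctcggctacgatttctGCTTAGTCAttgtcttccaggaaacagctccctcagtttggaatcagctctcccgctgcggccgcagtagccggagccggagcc
The GPX2 stretch is chr14:64942696-64942995 and the GCLM stretch is chr1:93909381-93909680, both on the minus strand. CYP4F11 lies at chr19:15934818-15935117 on the minus strand and PGD at chr1:10398814-10399113 on the plus strand. For the interferon-stimulated response element the core GAAANNGAA was searched, a choice made after the interferon values were seen; matches of this core can overlap one another.
IFI6: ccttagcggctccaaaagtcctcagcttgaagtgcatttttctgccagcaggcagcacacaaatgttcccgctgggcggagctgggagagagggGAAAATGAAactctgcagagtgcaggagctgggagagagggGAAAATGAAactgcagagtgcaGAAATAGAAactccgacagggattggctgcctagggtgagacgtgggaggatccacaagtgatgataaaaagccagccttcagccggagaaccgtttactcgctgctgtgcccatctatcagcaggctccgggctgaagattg
IFIT1: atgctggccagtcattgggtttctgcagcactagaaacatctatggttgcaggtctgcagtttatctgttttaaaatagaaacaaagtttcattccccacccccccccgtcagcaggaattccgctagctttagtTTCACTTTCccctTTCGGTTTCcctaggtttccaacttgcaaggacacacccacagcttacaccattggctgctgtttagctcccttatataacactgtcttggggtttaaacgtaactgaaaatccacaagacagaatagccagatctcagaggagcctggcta
IFI6 is at chr1:27672143-27672442 on the minus strand and IFIT1 at chr10:89392373-89392672 on the plus strand.

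Of the 31 NRF2 targets, 20 had a promoter in the table, and 7 of these (35%) held the core, against 13.6% of all 27305 promoters. Among the 11148 promoters of tested genes the share was 15.2%. Of the 19 higher targets with a promoter, 6 held the core. The interferon core was in 20 of 31 promoters of the interferon list (64.5%), against 8.29% of all promoters and 6.58% of those of tested genes. A match describes the letters in this window and not binding in these cells.

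The files give no counts. Relative depth, read from the smallest steps of FPKM, ran from 0.595 to 1.40 of the median over the 12 vehicle libraries, and the A549 libraries stood at 1.32, 0.923 and 1.40. The number of genes above 1 FPKM was 13236 to 14039 per library, and 13257 to 13334 in A549. The median standard deviation between replicates on the log2 scale was 0.0713 in A549, 0.0616 in H1975, 0.0549 in H3255 and 0.0539 in H820. The A549 libraries were not equal at genes that are low in this line. Among genes called lower by at least 1 log2 unit, 417 had a mean under 1 FPKM and some signal. Replicate 2 was the highest in 210 of these, against 95 for replicate 1 and 112 for replicate 3. Replicate 2 was also the least deep of them, and a link with depth was not tested. Its median over such genes was 0.101 FPKM, against 0.0773 and 0.0852 in the others. The part of this in the results was not tested, and no gene chosen by the naming rule reversed when replicate 2 was left out.

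Most genes differed between A549 and any single other line. In a limma fit of log2(FPKM + 0.5) with 4 group means, A549 was higher than H1975 at 5241 genes (31.3% of those tested) and lower at 8497 (50.7%). Against H3255 it was higher at 6965 (41.5%) and lower at 7142 (42.6%), and against H820 higher at 6511 (38.8%) and lower at 7307 (43.6%). The median difference over all genes was -0.19 against H1975, 0.00 against H3255 and -0.04 against H820. After rescaling by medians of ratios, which moved the median against H1975 by more than 0.1 to 0.00, the calls against H1975 were 6747 higher and 6946 lower. The share of those calls that was higher then went from 38.1% to 49.3%. The 3 comparisons share the A549 libraries and are not independent of one another.

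By the rule of the same direction in all 3 comparisons, 2874 genes (17.1%) were higher in A549 and 3726 (22.2%) were lower. With rescaled values these counts were 3449 and 3221, so the larger side changed from lower to higher. It also changed against H3255, where rescaling gave 7225 higher and 6913 lower. A difference of at least 1 log2 unit from each other line was met by 950 higher genes (5.67%) and 731 lower genes (4.36%). All 950 and all 731 were called again after rescaling. Of the 950, 424 had a mean under 1 FPKM in each of the other lines, and 59 of these were over 10 FPKM in A549. Of the 731, 450 had a mean under 1 FPKM in A549, and 20 of these were over 10 FPKM in each other line. The values just inside the size limit were 1.0011 and -1.0005, and those just outside were 0.99979 and -0.99949. One of the 731, mitochondrial COX1, was listed at 0 in A549 replicates 1 and 3 and at 10347 FPKM in replicate 2, so its call rests on 2 listed zeros at an abundant gene. Vehicle libraries of the other lines were at 8341 FPKM or more. With the aptamer libraries included, the lowest value of COX1 in those lines was also 0.

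The same genes were then examined in libraries that had not entered the calls. In the C36 libraries, 929 of the 950 higher genes and 730 of the 731 lower genes were called in the same direction by the same fit. In the MinE07 libraries the counts were again 929 and 730. Calls of any size were met again less often. In C36, 2654 of the 2874 higher genes (92.3%) and 3443 of the 3726 lower genes (92.4%) were called again. The MinE07 counts were 2638 (91.8%) and 3372 (90.5%). No gene was called in the opposite direction in either set, and 14 of the 950 were under the limit of 1 FPKM in each. Over all 36 libraries, of which 12 had entered the calls, the 9 A549 libraries lay apart from the other 27 at 936 of the 950 and 729 of the 731. Over all genes tested, A549 lay above the other libraries at 14.6% and below them at 18.1%.

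**Figure D1:**
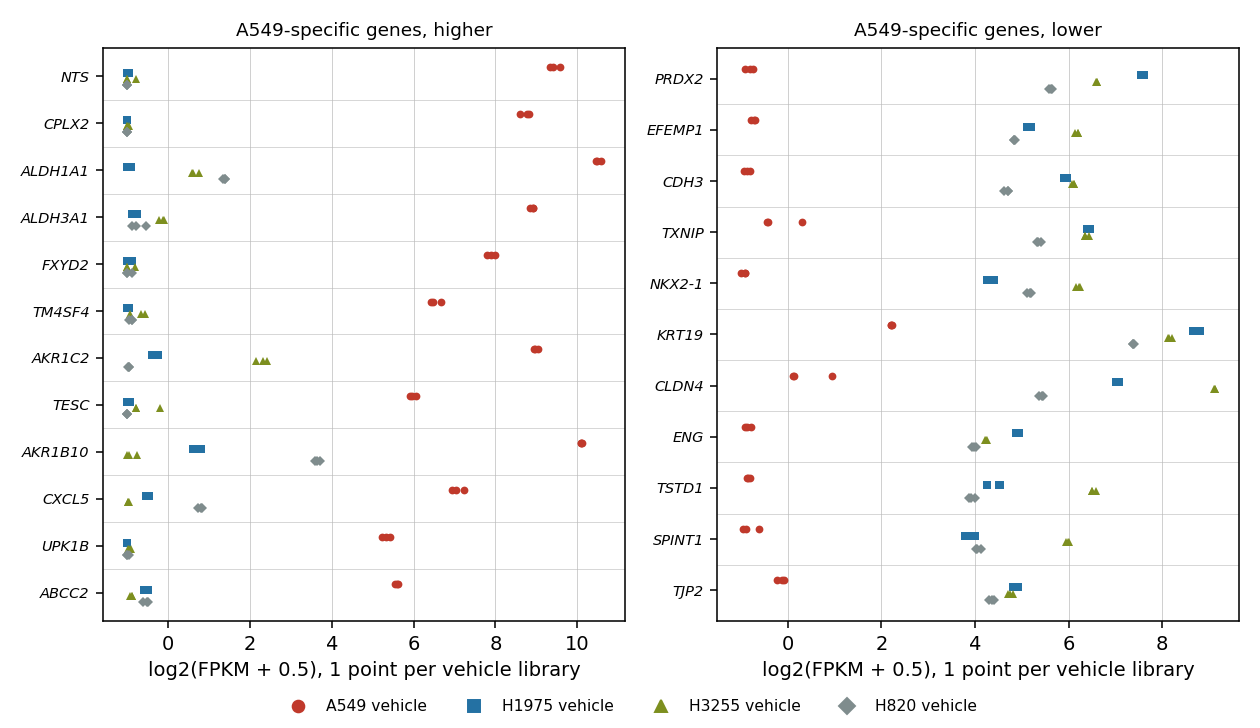
Values of the protein-coding genes with the largest A549-specific differences, 12 higher and 11 lower, mitochondrial genes left out. They are drawn as log2(FPKM + 0.5), with 1 point per vehicle library and a colour and shape for each line. The A549 points are separate from all 9 other points at each gene, and at CLDN4 and TXNIP A549 replicate 2 lies above the other A549 libraries.

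The genes below are those with the largest A549-specific differences by the naming rule, which left out mitochondrial genes. NTS, CPLX2, FXYD2, TM4SF4 and UPK1B among them passed the expression limit only through A549. NTS, the precursor of the peptide neurotensin, was at 757, 643 and 672 FPKM in A549. In the other lines it was listed at 0 in 7 of 9 libraries and reached no more than 0.0833 FPKM. CPLX2, a complexin that acts in vesicle fusion in neurons, was at 390, 451 and 437 FPKM in A549 and at most 0.0203 FPKM elsewhere. For these 2 genes the other lines are effectively silent, so no ratio is given.

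ALDH1A1, the retinaldehyde dehydrogenase also used as a stem cell marker, was at 1539, 1416 and 1437 FPKM in A549. It was at most 0.0377 FPKM in H1975, 0.995 to 1.20 FPKM in H3255 and 2.02 to 2.13 FPKM in H820. The A549 values did not overlap those of any line, and the smallest log2 difference, from H820, was 9.14 ± 0.0557 (SE; limma, adjusted p = 1.23e-17). FXYD2, the gamma subunit of the sodium pump, was at 253, 235 and 220 FPKM in A549 and no more than 0.0708 FPKM in any other library. TM4SF4, UPK1B and the neutrophil-attracting chemokine CXCL5 had A549 means of 91.5, 39.5 and 135 FPKM, and only CXCL5 exceeded 1 FPKM in another line, at 1.23 FPKM in H820.

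Among the protein-coding genes ranked by the naming rule, the lowest in A549 relative to every other line was PRDX2, a thiol peroxidase. Its values were 0.0709, 0.101 and 0.0335 FPKM in A549, against 187 to 195 in H1975, 95.7 to 97.1 in H3255 and 47.2 to 49.7 in H820. The smallest log2 difference was -6.43 ± 0.0424 (SE; limma, adjusted p = 2.01e-17). CDH3 (P-cadherin), EFEMP1 and ENG (endoglin) were under 0.12 FPKM in each A549 library. TXNIP, the thioredoxin-binding protein that responds to glucose, was at 0.242, 0.734 and 0.231 FPKM against 39.7 FPKM or more elsewhere.

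**Figure D2:**
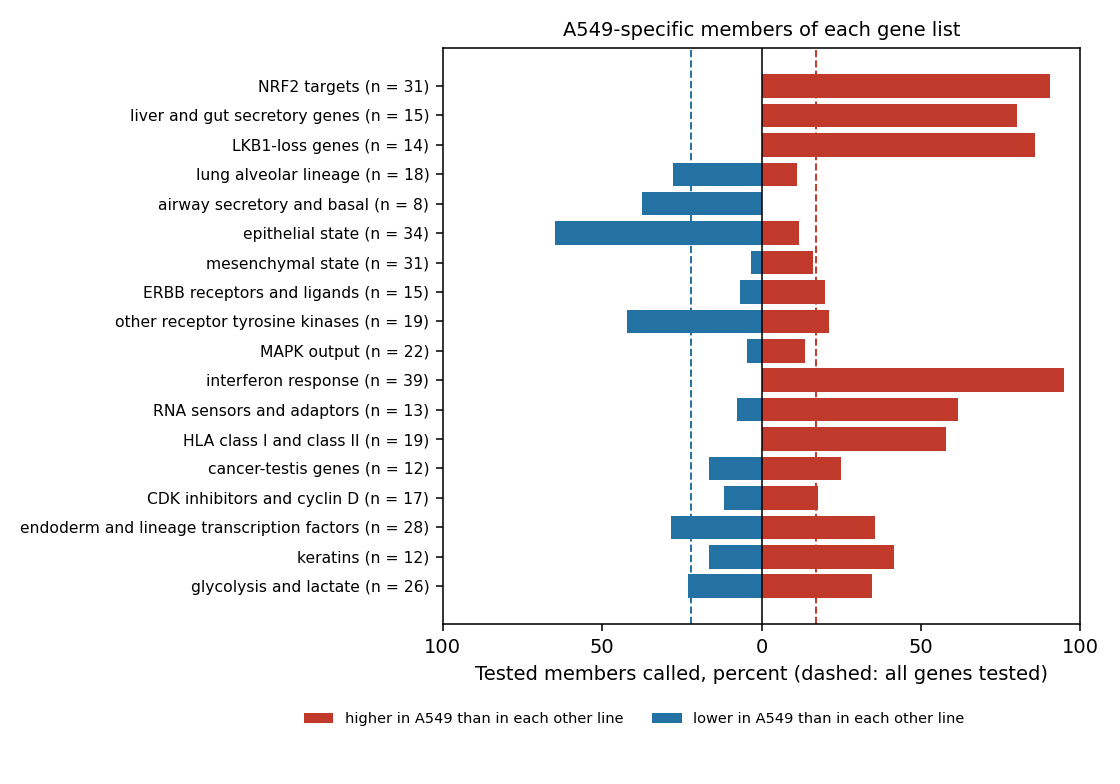
Share of the tested members of the gene lists shown that were called A549-specific, to the right for members higher in A549 than in each other line and to the left for lower ones, with the number tested in parentheses. The dashed lines mark all genes tested, 17.1% higher and 22.2% lower; the interferon response, NRF2 target and LKB1-loss bars reach farthest right and the epithelial state bar farthest left.

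The NRF2 targets stood almost entirely on the high side. All 31 were tested, 28 were A549-specific and higher, 22 of them by at least 1 log2 unit, none was lower, and 4 had passed the expression limit only through A549. The median difference of the list was 2.46 from H1975, 2.59 from H3255 and 2.68 from H820, beside -0.19, 0.00 and -0.04 over all genes. ME1, CBR3 and ABCC3 were the members that were not A549-specific. Under the alternatives tried, 27 to 28 members were called higher and none lower.

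Among the enzymes that reduce aldehydes and ketones, AKR1B10 was at 1104, 1082 and 1090 FPKM in A549. It was 1.03 to 1.24 FPKM in H1975, at most 0.0922 FPKM in H3255 and 11.7 to 12.5 FPKM in H820. ALDH3A1, an aldehyde dehydrogenase, was at 459, 483 and 481 FPKM in A549 and no more than 0.433 FPKM elsewhere. AKR1C2 had a mean of 506 ± 19.6 FPKM (SD, n = 3) and AKR1C3 a mean of 562 FPKM, with AKR1C1 at 56.6 FPKM. AKR1C1 and AKR1C2 are near-identical genes, so the split of fragments between them is uncertain, and both were highest in A549.

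Genes of glutathione and of the quinone response followed. GPX2, a glutathione peroxidase of gut epithelium, was at 599, 534 and 532 FPKM in A549, against 9.39 to 9.86 FPKM in H3255 and at most 0.512 FPKM in the other 2 lines. NQO1, the quinone reductase used as a readout of NRF2, had means of 547 FPKM in A549, 103 in H1975, 144 in H3255 and 36.7 in H820. GCLC and GCLM, the subunits of the enzyme that starts glutathione synthesis, had A549 means of 60.5 and 34.7 FPKM and smallest log2 differences of 1.34 and 1.43. SLC7A11, the cystine importer, was at 24.4 FPKM in A549 and no more than 3.77 FPKM in another library. ABCC2, an exporter of glutathione conjugates, was at 46.2, 48.2 and 48.3 FPKM and below 0.22 FPKM in all other vehicle libraries. NR0B1, an orphan nuclear receptor, was at 22.8 FPKM in A549 and listed at 0 in 8 of the 9 other libraries.

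An NADPH-producing enzyme of the pentose phosphate pathway was also higher. PGD had means of 406 FPKM in A549 and 26.4, 44.5 and 66.1 FPKM in H1975, H3255 and H820, a smallest log2 difference of 2.61. GSR, which regenerates glutathione with that NADPH, was at 99.3 FPKM in A549 and between 8.67 and 12.1 FPKM in the other lines. HMOX1, by contrast in size, differed from H1975 by 0.26 only, at 83.2 against 69.2 FPKM.

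The mRNAs of the regulators themselves did not show this pattern. NFE2L2 was at 49.1 ± 3.22 FPKM (SD, n = 3) in A549, higher than H1975 (37.8) and H820 (44.1) and lower than H3255 (59.8). KEAP1 was at 28.5 ± 0.326 FPKM, lower than H1975 (49.0) and higher than H3255 (15.2) and H820 (22.8). KEAP1 therefore fell inside the range of the other lines, and so did NFE2L2.

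**Figure D3:**
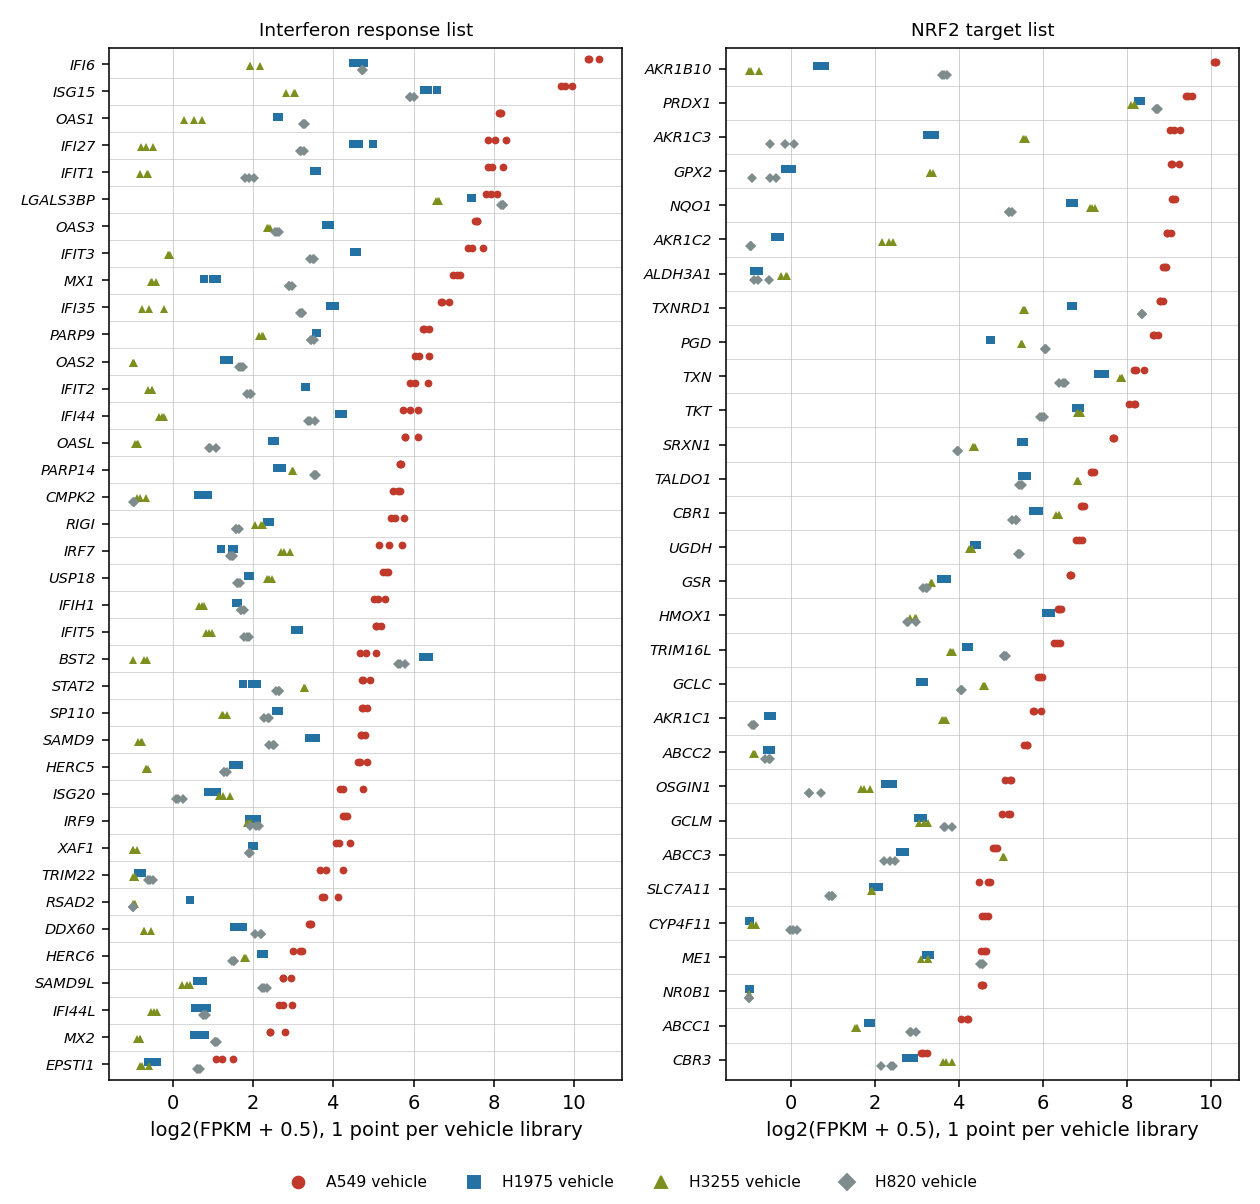
Tested members of the interferon response list (left) and the NRF2 target list (right) in the 12 vehicle libraries, as log2(FPKM + 0.5), ordered by their A549 mean. The A549 points lie to the right of all others at most genes, with BST2 and LGALS3BP on the left and ABCC3 and CBR3 on the right among the exceptions.

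Without any aptamer, A549 held high levels of interferon-stimulated transcripts. All 39 list members were tested, 37 were A549-specific and higher, 34 of them by at least 1 log2 unit, and none was lower. The 2 others were BST2 and LGALS3BP, and 2 members had passed the expression limit only through A549. The median difference was 2.99 from H1975, 4.84 from H3255 and 3.40 from H820. A549 means ran from 1.93 FPKM at EPSTI1 to 1407 FPKM at IFI6. Replicate 1 was the highest of the A549 libraries at 30 of the 37 members. The same replicate was also the most often highest beyond this list, though at smaller shares. It was highest at 535 of the 950 genes higher by at least 1 log2 unit, and at 18 of the 28 higher NRF2 targets. The larger share in the interferon list was not tested.

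IFI6, an endoplasmic reticulum protein with antiviral action, was at 1579, 1329 and 1311 FPKM in A549. It was 21.8 to 26.5 FPKM in H1975, 3.27 to 4.05 FPKM in H3255 and 25.7 to 26.1 FPKM in H820. The groups did not overlap, and the smallest log2 difference was 5.73 ± 0.0915 (SE; limma, adjusted p = 5.46e-14). ISG15, a ubiquitin-like modifier, was at 990, 814 and 871 FPKM in A549, against 76.1 to 95.6 in H1975, 6.54 to 7.79 in H3255 and 59.3 to 63.6 in H820. OAS1, which makes the second messenger that activates RNase L, was at 287, 281 and 283 FPKM in A549 and no more than 9.23 FPKM in another library. OAS2 and CMPK2 had A549 means of 72.5 and 47.5 FPKM, with at most 2.84 FPKM in any other library. IFIT1, which binds foreign RNA caps, was at 298, 233 and 246 FPKM in A549 and at most 11.6 FPKM elsewhere.

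The signalling part of the pathway was higher too. STAT2 and IRF9, parts of the complex that binds the response element, had A549 means of 27.3 and 19.1 FPKM and smallest log2 differences of 1.52 and 2.24. IRF9 also has a numbered further copy, and with copies summed its smallest difference was 2.33.

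Of the RNA sensors and adaptors, 13 of 16 were tested, 8 were higher in A549 and 1 was lower, beside 17.1% and 22.2% of all genes. TLR3 had passed the limit only through A549. RIGI, the sensor of triphosphate RNA, was at 53.4, 43.1 and 46.1 FPKM in A549 and 2.48 to 4.88 FPKM in the other libraries. IFIH1 (MDA5) was at 38.3, 31.6 and 33.8 FPKM, against 2.93 FPKM or less. EIF2AK2 (the kinase PKR) and TLR3 had A549 means of 43.8 and 5.36 FPKM, with smallest log2 differences of 2.12 and 2.07. The member that was lower was STING1, the adaptor of DNA sensing, at 0.219, 0.174 and 0.158 FPKM in A549 against 4.18 FPKM or more in every other library. Its smallest log2 difference was -2.81 ± 0.0626 (SE; limma, adjusted p = 2.42e-13).

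Transcripts of the interferons were looked up after these values were seen. IFNB1, interferon beta, was at 5.02, 4.71 and 4.50 FPKM in A549 vehicle and at most 0.0282 FPKM in the other vehicle libraries. IFNL1, a lambda interferon, was at 12.9, 9.71 and 9.02 FPKM in A549 and at most 0.0479 FPKM elsewhere, and was listed at 0 in all H3255 libraries. IFNL2 and IFNL3, near-identical genes whose fragments may be shared, had A549 means of 5.36 and 5.69 FPKM. These 4 genes passed the expression limit only through A549, so that they had to be higher there, and no test is given for them. IFNG was listed at 0 in all 12 libraries. Over all 9 A549 libraries, the aptamer-treated ones included, IFNB1 ran from 4.50 to 15.9 FPKM and IFNL1 from 9.02 to 33.4 FPKM.

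Antigen presentation genes were partly higher. Of 25 members of the HLA list, 19 were tested, 11 were higher and none was lower, 5 of them by at least 1 log2 unit, beside 17.1% and 22.2% of all genes called higher or lower. Without A549 replicate 1 the 5 fell to 1, and with a pseudocount of 1 to 2, while the 11 stayed 11. HLA-F and TAP1 had passed the limit only through A549. The files list up to 7 further numbered copies of the genes of the major histocompatibility complex, so single entries hold only part of a gene's signal. With copies summed, an alternative chosen after seeing the data, TAP1, the peptide transporter, was at 62.8 FPKM in A549 and 9.18, 2.88 and 2.71 FPKM in H1975, H3255 and H820. B2M, the light chain of class I molecules, was at 1089, 538, 107 and 330 FPKM in the same order. HLA-C was then higher in A549 by at least 0.31 log2 units, while it was not called from its single entry. With copies summed, 2 members of the list were lower in A549, HLA-DMA among them. The levels given for STING1, LPCAT1, LRIG1 and TWIST2 are also those of 1 of 2 entries, and each kept its call with copies summed.

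The main lung lineage factor was near 0 in A549. NKX2-1 was at 0.0331, 0 and 0.0313 FPKM in A549, against 18.7 to 20.7 in H1975, 71.1 to 75.4 in H3255 and 34.2 to 36.1 in H820. The smallest log2 difference was -5.29 ± 0.0458 (SE; limma, adjusted p = 1.26e-16). SFTA3, the neighbour of NKX2-1 in the genome, was listed at 0 in all A549 libraries and was at 9.97 FPKM or more in every other one. LPCAT1, which makes surfactant lipid, was at 8.28 FPKM in A549 and between 40.8 and 173 FPKM on average in the other lines. Of the 24 alveolar list members, 18 were tested, 5 were lower in A549 and 2 were higher, beside 22.2% and 17.1% of all genes. The median difference of this list was -0.07 from H1975, -3.64 from H3255 and -0.09 from H820. Of the 18, 12 were under 1 FPKM in A549.

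Surfactant genes did not set A549 apart, because most of them were low in H1975 and H820 as well. SFTPA1 was at 61.4 FPKM in H3255 and below 0.01 FPKM on average in each of the other 3 lines, and SFTPB was at 3.48 FPKM in H3255 and below 0.05 FPKM elsewhere. SFTPA1 and SFTPB thus did not show the labelled lung origin in A549, H1975 or H820, while the epithelial keratins of A549 were abundant. The higher members included LAMP3, a lamellar body protein that is also interferon-inducible, at 13.9, 8.27 and 10.1 FPKM against 3.38 FPKM or less. In the airway list, 8 of 20 members were tested, 3 were lower and none was higher, beside 22.2% and 17.1% of all genes. The lower ones were MUC1, SOX2 and FOXJ1. FOXJ1 was near 0 in both A549 and H820, at 0.0482 and 0.134 FPKM, and its call was lost in the MinE07 libraries. MUC1, a membrane mucin, had means of 0.929 FPKM in A549 and 8.50, 161 and 10.6 FPKM in H1975, H3255 and H820.

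**Figure D4:**
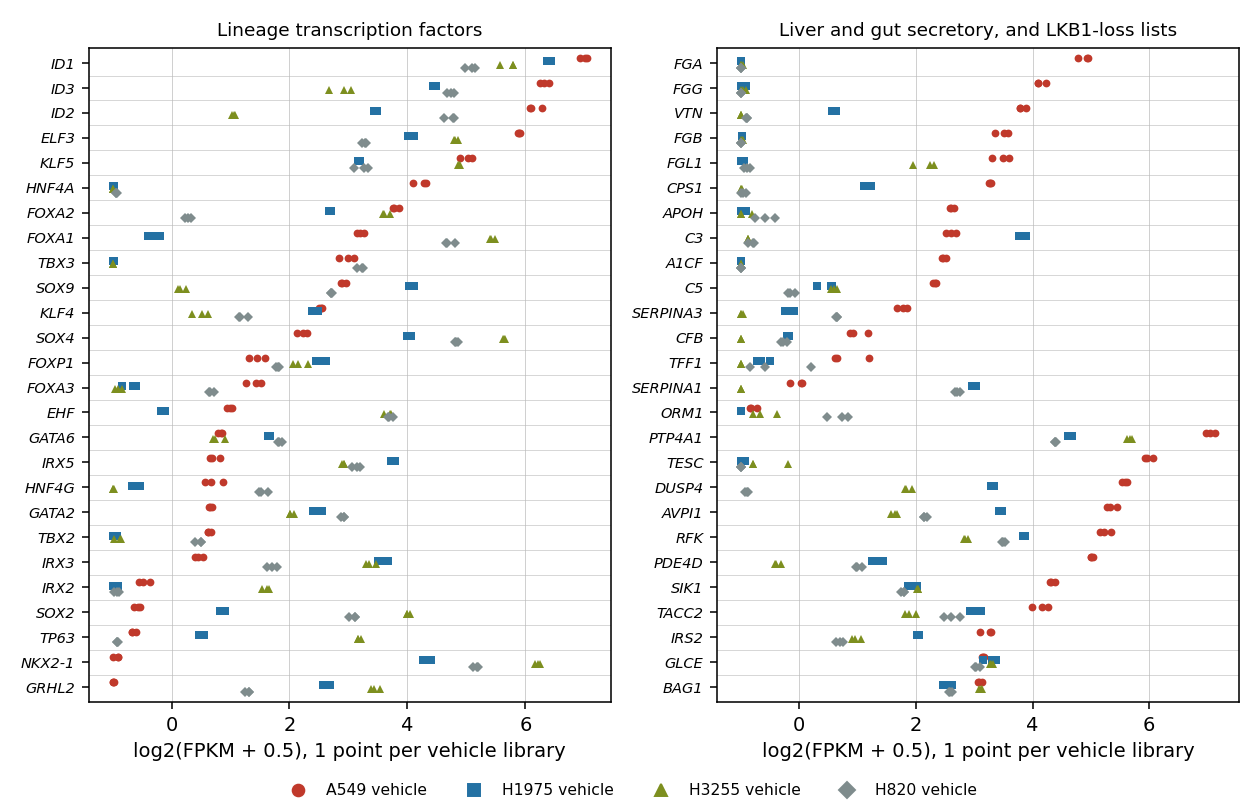
Tested lineage transcription factors (left) and members of the liver and gut secretory and LKB1-loss lists (right) in the 12 vehicle libraries, as log2(FPKM + 0.5), 1 point per library. HNF4A has signal in the A549 libraries and almost none elsewhere, NKX2-1 and GRHL2 have signal in every line except A549, and the 3 fibrinogen genes are separate from all other libraries.

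A hepatocyte and gut factor was present in A549. HNF4A was at 16.6, 19.0 and 19.4 FPKM in A549, no more than 0.0260 FPKM in any other library, and listed at 0 in all of H3255. Of 28 tested factors, 10 were higher in A549 and 8 were lower, beside 17.1% and 22.2% of all genes, and 3 of the 10, HNF4A among them, had passed the limit only through A549. The lower ones included SOX4, at 4.16 FPKM against 15.8 to 49.2 FPKM, and IRX5, at 1.15 FPKM against 7.03 to 13.0 FPKM.

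Transcripts of some secreted liver proteins were present in A549 and those of others were near 0. FGA, FGB and FGG, the chains of fibrinogen, had A549 means of 29.1, 10.7 and 17.1 FPKM. FGA was listed at 0 in 8 of the 9 other libraries, and none of the 3 chains exceeded 0.04 FPKM in any of them. VTN (vitronectin), APOH and A1CF, an RNA-editing cofactor, were at 13.7, 5.61 and 5.06 FPKM in A549. Of 31 list members only 15 were tested, 12 of them were higher and none lower, beside 17.1% and 22.2% of all genes. Of the 15, 7 had passed only through A549 and had to differ. SERPINA1, with copies summed, was at 0.794 FPKM in A549, below H1975 (12.3) and H820 (9.75), and at 0 in H3255. It was therefore not A549-specific. ALB, APOA1, TTR, AFP and TF, other main products of hepatocytes, were below 1 FPKM in all 4 lines.

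Genes reported to mark LKB1 loss in lung tumours were higher in A549, and that list shares FGA, CPS1 and TFF1 with the liver list. Of 16 members, 14 were tested, 12 were higher and none was lower, beside 17.1% and 22.2% of all genes. All 12 differed by at least 1 log2 unit, while 3 members had passed only through A549. PDE4D, which degrades cyclic AMP, was at 32.5, 31.5 and 31.7 FPKM in A549 and no more than 2.22 FPKM in another library. SIK1, a salt-inducible kinase whose gene is a target of the factor CREB, was at 19.2, 20.4 and 19.5 FPKM against 3.61 FPKM or less. TESC, a calcium-binding protein, was at 66.2, 61.6 and 60.0 FPKM against 0.375 FPKM or less. CPS1, the first enzyme of the urea cycle, was at 9.12 FPKM in A549 and 1.75 FPKM in H1975.

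STK11 mRNA itself was present. It was at 8.49, 9.01 and 9.66 FPKM in A549, 9.63 to 10.2 in H3255, 16.6 to 18.3 in H1975 and 24.1 to 25.1 in H820. The difference from H3255 was -0.14 ± 0.0505 (SE; limma, adjusted p = 0.0206), and A549 overlapped H3255 by replicate 3. This call was lost after rescaling, without A549 replicate 1 (-0.098), without H3255 replicate 2 (-0.13) or 3 (-0.13), and in both sets of aptamer libraries.

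SMARCA4, the ATPase of the SWI/SNF remodelling complex, was nearly silent in A549. It was at 0.795, 0.978 and 0.998 FPKM in A549, against 43.5 to 44.6 in H1975, 37.9 to 40.3 in H3255 and 19.2 to 20.1 in H820. The groups did not overlap, and the smallest log2 difference was -3.82 ± 0.0521 (SE; limma, adjusted p = 4.30e-15).

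**Figure D5:**
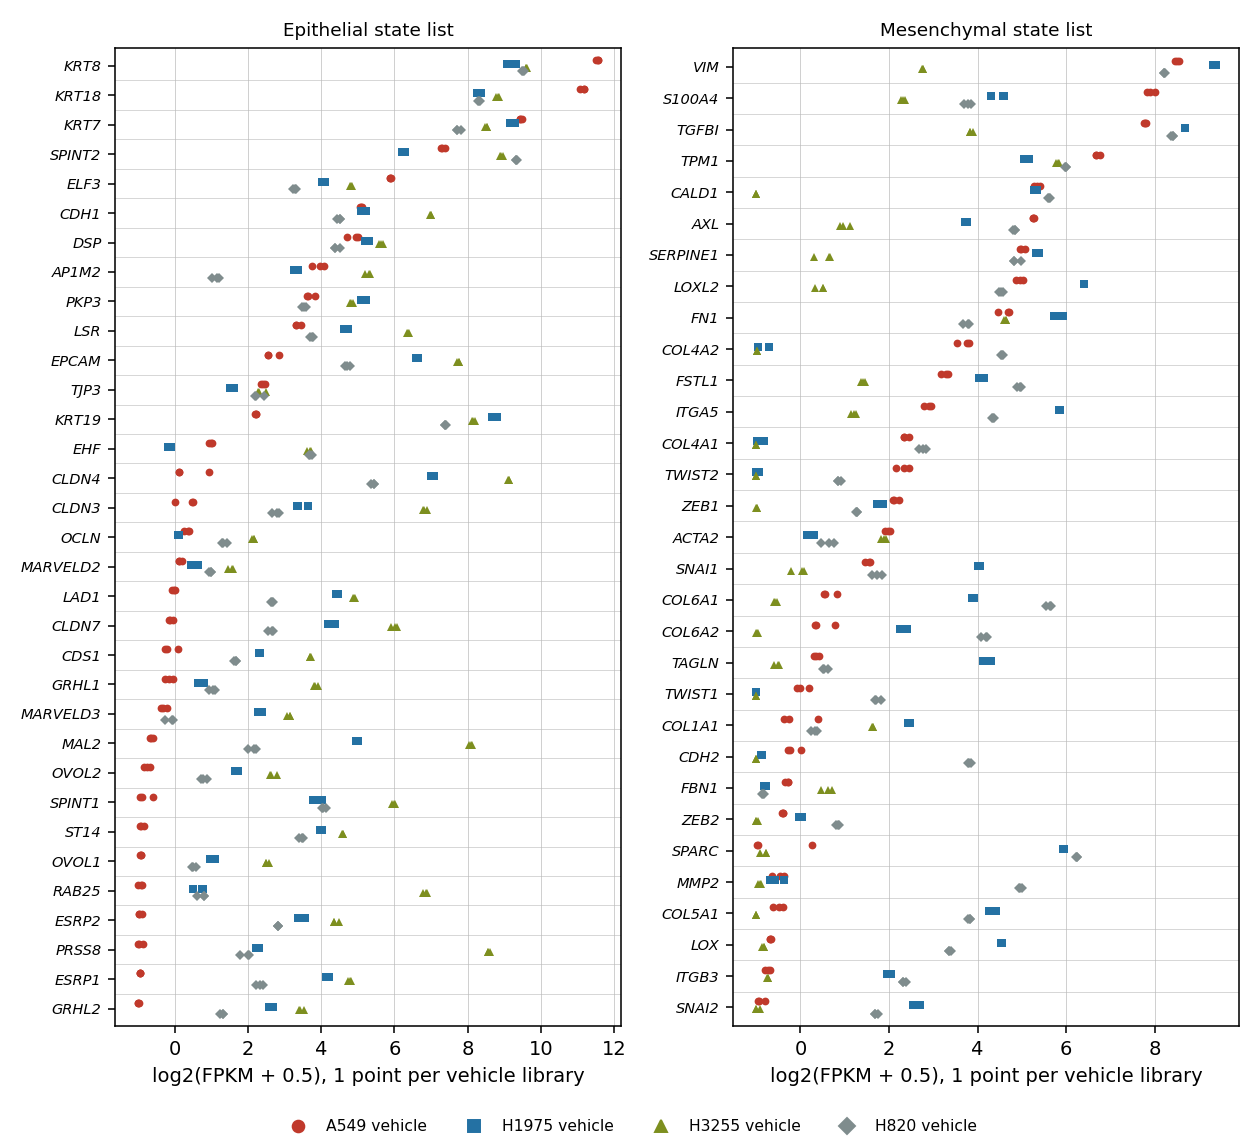
Tested members of the epithelial state list (left) and the mesenchymal state list (right) in the 12 vehicle libraries, as log2(FPKM + 0.5), ordered by their A549 mean, with 1 point per library. A549 is rightmost at KRT8 and KRT18 and leftmost at KRT19 and most lower rows of the left panel, while on the right VIM and most matrix genes lie between those of other lines.

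The epithelial programme of A549 was split. Of 34 tested members, 22 were lower in A549 than in each other line and 4 were higher, beside 22.2% and 17.1% of all genes. The lower members differed by at least 1 log2 unit at 18 genes, and 20 of the 34 had a mean under 1 FPKM in A549. The median difference was -2.22 from H1975, -3.65 from H3255 and -1.73 from H820. The lower members included transcription factors, splicing factors, tight junction proteins and membrane proteases. CDH1 (E-cadherin) was not among them, at 33.5 FPKM in A549, 35.0 in H1975, 127 in H3255 and 21.9 in H820.

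GRHL2, a transcription factor of epithelial barriers, was below 0.01 FPKM in each A549 library and at 1.88 FPKM or more in every other one. ESRP1 and ESRP2, which set epithelial splicing, had A549 means of 0.0154 and 0.0203 FPKM, against 4.50 to 26.9 and 6.60 to 20.4 FPKM in the other lines. CLDN4, a tight junction claudin, was at 0.580, 1.43 and 0.589 FPKM in A549, against 128 to 135 in H1975, 548 to 562 in H3255 and 40.8 to 43.3 in H820. The matriptase gene ST14 and its inhibitor gene SPINT1 had A549 means of 0.0343 and 0.0703 FPKM, with 10.0 FPKM or more in all other libraries. EPCAM was reduced rather than silent, at 6.71, 5.36 and 5.34 FPKM in A549 and 24.6 FPKM or more elsewhere.

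The keratins divided in the same way. KRT8, a simple-epithelium keratin, was at 3014, 2914 and 3007 FPKM in A549, against 539 to 793 FPKM in the other libraries. KRT18, its partner, had a mean of 2261 ± 85.5 FPKM (SD, n = 3) in A549 and 314 to 450 FPKM on average in the other lines. KRT19 went the other way, at 4.18, 4.11 and 4.13 FPKM in A549, 405 to 446 in H1975, 279 to 296 in H3255 and 166 to 169 in H820. KRT81, a hair keratin, was at 783, 743 and 738 FPKM in A549 and at most 17.9 FPKM elsewhere. Over the list, 5 of 12 tested keratins were higher and 2 were lower, beside 17.1% and 22.2% of all genes.

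Mesenchymal genes did not rise together. Of 31 tested, 5 were higher and 1 was lower than in each other line, beside 17.1% and 22.2% of all genes. The lower member was COL1A1, whose call was lost without A549 replicate 1 (-0.24) or 3 (-0.31) and without H820 replicate 2 (-0.39) or 3 (-0.37). S100A4, a calcium-binding protein of motile cells, was at 258, 227 and 238 FPKM in A549 and 4.35 to 23.6 FPKM elsewhere. TWIST2 was at 4.48 FPKM in A549 and 1.32 FPKM in H820, and was below 0.01 FPKM on average in the other 2 lines. AXL, a receptor kinase, was at 37.6 FPKM in A549 and 28.0 FPKM in H820. ZEB1 was at 3.94 FPKM in A549 and 2.97 FPKM in H1975. VIM (vimentin) was at 363 FPKM in A549, between H820 (298) and H1975 (657), with H3255 at 6.25 FPKM.

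EGFR mRNA was not A549-specific. It was at 19.4, 20.3 and 19.9 FPKM in A549, 24.6 to 27.8 in H1975, 415 to 421 in H3255 and 7.39 to 7.67 in H820. The log2 differences were -0.38 ± 0.0411, -4.36 ± 0.0411 and 1.34 ± 0.0411 (SE; limma, largest adjusted p = 1.94e-06). In EGFR level the order was H3255, H1975, A549 and H820, and no neighbours in that order overlapped. ERBB2 was at 9.02 FPKM in A549 and 8.65 FPKM in H820, a difference of 0.06 ± 0.0447 that was not called (limma, adjusted p = 0.251). ERBB3 was at 6.66 FPKM, between H820 (2.62) and H1975 (8.56).

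Of the 15 tested members of the ERBB receptor and ligand list, 3 were higher in A549 and 1 was lower, beside 17.1% and 22.2% of all genes. AREG (amphiregulin) was at 42.0, 33.3 and 37.6 FPKM in A549 and no more than 10.7 FPKM in another vehicle library. NRG1 and NRG4, ligands of the ERBB receptor family, had A549 means of 14.0 and 1.24 FPKM, and NRG1 was at 9.17 FPKM in H1975. LRIG1, an inhibitor of these receptors, was lower, at 0.913 FPKM in A549 and 3.03 to 4.50 FPKM in the other lines. NRG4 had passed the limit only through A549.

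Among other receptor kinases, 4 of 19 tested were higher and 8 were lower, beside 17.1% and 22.2% of all genes. FGFR4 was at 23.2, 26.4 and 26.3 FPKM in A549 and no more than 2.32 FPKM elsewhere. FGFR1 was at 44.7 FPKM in A549, 11.7 in H820, 4.44 in H1975 and 0.00583 in H3255. IGF1R was at 15.6 FPKM and 3.09 to 4.09 FPKM in the other lines. The lower members included EPHB4, at 7.94 FPKM against 17.3 to 88.5 FPKM, and EPHA4, at 0.0956 FPKM against 0.798 to 14.6 FPKM.

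The transcripts that report MAP kinase output showed no common direction, with 3 of 22 tested members higher and 1 lower, beside 17.1% and 22.2% of all genes. DUSP4, a nuclear MAP kinase phosphatase, was at 46.0, 47.4 and 48.7 FPKM in A549, 9.30 to 9.64 in H1975, 3.00 to 3.31 in H3255 and at most 0.0456 in H820. DUSP5 and FOS were at 23.2 and 11.5 FPKM. SPRY2, a feedback inhibitor, was at 1.81 FPKM in A549 and 2.44, 6.20 and 38.4 FPKM in H820, H1975 and H3255. DUSP6, at 3.83 FPKM, fell between H820 (0.0979) and H1975 (5.43).

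CDKN2A was listed at 0 in 2 A549 libraries and at 0.0217 FPKM in replicate 2, and at 0 in all H3255 libraries, with means of 33.5 FPKM in H1975 and 346 FPKM in H820. It was therefore near or at 0 in A549 and H3255 and not A549-specific. CDKN2B followed it, at 0.00173 FPKM in A549, 0 in H3255, 6.07 in H1975 and 16.6 in H820. The neighbouring gene MTAP separated A549 from H3255, at 2.58, 2.63 and 2.86 FPKM in A549 and listed at 0 in H3255. CCND3 (cyclin D3) was A549-specific, at 129, 121 and 124 FPKM against 19.8 to 30.6 FPKM in the other libraries.

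Of 26 glycolysis genes tested, 9 were higher in A549 and 6 were lower, beside 17.1% and 22.2% of all genes. SLC2A3, a glucose transporter, was at 65.3 FPKM in A549, 12.1 in H1975, 8.05 in H3255 and 0.0164 in H820. PFKFB3 and PFKP, which push flux through phosphofructokinase, were at 81.4 and 123 FPKM, with smallest log2 differences of 2.13 and 1.36. PFKL, another phosphofructokinase gene, went the other way, at 14.2 FPKM in A549 against 19.3 to 36.5 FPKM on average in the other lines. The first step was lower: HK2 (hexokinase 2) was at 0.655, 0.590 and 0.536 FPKM in A549 and 6.33 FPKM or more in every other library, and HK1 was at 8.53 FPKM against 20.6 to 32.4 FPKM.

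In the cancer-testis list, genes normally silent outside the germ line, 12 of 31 were tested, 3 were higher and 2 were lower, beside 17.1% and 22.2% of all genes. Of the 3, LIN28B and SPANXB1 had passed the limit only through A549, and the number higher was 1 with a limit of 5 FPKM and 6 with no limit. LIN28B, an RNA-binding repressor of let-7, was at 4.47, 4.16 and 4.53 FPKM in A549 and at most 0.0031 FPKM elsewhere. XAGE1A and XAGE1B were lower, at 24.1 and 30.4 FPKM in A549 and over 100 FPKM on average in each other line, but these are near-identical genes that can share fragments.

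Markers of other cell types gave the following levels. No endothelial marker of 10 reached 1 FPKM in any line, and the summed level in A549 was 0.597 to 0.831 FPKM. No fibroblast marker of 10 reached 1 FPKM in A549, where the sum was 0.464 to 1.87 FPKM, against 37.8 to 40.9 FPKM in H820. Of 12 leukocyte markers, CD68, a lysosomal protein, and CD14 reached 1 FPKM in A549, while CD3E, CD3D, MS4A1 and TYROBP were among those listed at 0. CD68 and CD14 also reached 1 FPKM in H1975 and H820, and CD68 in H3255. The leukocyte sum was 68.5 to 82.9 FPKM in A549 and 62.5 to 63.5 FPKM in H1975. Of 10 neuroendocrine markers, CHGB, SYP and DLL3 reached 1 FPKM in A549. CHGB and SYP were A549-specific and higher, at 10.7 and 4.40 FPKM, SYP having passed the limit only through A549. DLL3 also reached 1 FPKM in H820 and was not A549-specific. The sum was 18.0 to 19.4 FPKM in A549, 1.74 to 2.04 in H1975, 1.27 to 1.55 in H3255 and 4.62 to 4.84 in H820. NEUROD1 and INSM1, defining factors, were below 0.01 FPKM.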

How the data were processed

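RNA was sequenced from poly-A libraries of 4 lung cancer lines with 3 libraries per group, and the 12 vehicle libraries were compared. The authors deposited FPKM per gene and library. Per the submitters' processing notes, HISAT2, Cuffdiff and the builds GRCh38.p12 and hg38 were named, without versions or roles. Entries without a gene name (1874) and 31 entries sharing 15 repeated names were left out, and 7486 numbered further copies were kept as separate genes. The series speaks of biologically independent experiments.

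Values were analysed as log2(FPKM + 0.5), a scale that understates the difference of low genes. Genes with a mean of at least 1 FPKM in any line entered a limma model (version 3.58.1, with trend and robust moderation, under R 4.3.3 and statmod 1.5.0) holding 1 mean per line. Calls used a two-sided Benjamini-Hochberg adjusted p under 0.05 over the 16765 genes of each comparison, and the fit was tested on simulated data. The files hold no counts, so no counting interval could be given. Promoters came from RefSeq (GRCh38.p14), matched by symbol. Other steps used Python 3.11.15, pandas 2.3.3, numpy 2.4.6 and matplotlib 3.10.9.

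Genes named were the 12 protein-coding ones of largest smallest difference in each direction, up to 4 A549-specific members per list and direction, and 11 genes fixed by name. The ranking of the 12 left out numbered copies, mitochondrial genes, XIST and genes on the Y chromosome. Further list members, SFTPA1, COX1, the interferons, CDKN2B and MTAP were added after their values were seen. The members and the 23 gene lists were chosen with earlier results of these data known, and no list was tested as a set. Alternatives varied the pseudocount, the expression limit, the scaling, the treatment of copies, the moderation, the libraries fitted and each replicate left out. Some genes and 1 gene list that entered the fit and the counts are not reported here or drawn.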

Additional observations from a re-analysis of the deposited data

How the results depend on the processing

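Calls moved with the expression limit. Without it, 20839 genes differed from H1975 and 20777 from H820, and 4918 were A549-specific and higher. With a mean of at least 5 FPKM, 9119, 9392 and 9207 genes differed from H1975, H3255 and H820, 1908 were A549-specific and higher, and 600 of them by at least 1 log2 unit; fewer genes were tested there. With a pseudocount of 0.1 in place of 0.5, 1133 genes were lower by at least 1 log2 unit. The other alternatives, leaving out each replicate among them, kept these 7 counts within 1.5 times of those reported, and no named difference reversed. Rescaling by medians of ratios turned the balance of A549-specific calls, from 2874 higher and 3726 lower to 3449 and 3221. The main fit did not pair libraries by replicate number, and whether same-numbered libraries were made together is not stated. Deviations of same-numbered libraries correlated by -0.047 to 0.134, and those of differently numbered ones by -0.163 to 0.158. These ranges overlap and do not settle whether the numbers mark pairs. With a replicate block, 2877 genes were higher and 3725 lower, 949 and 731 of them by at least 1 log2 unit, and 13780, 14122 and 13843 genes differed from H1975, H3255 and H820. Of 123 named genes, 6 lost a call under at least 1 alternative: STK11, CCNE1, COL1A1, CDKN1C, FOXJ1 and FUCA1. In list counts, the liver and gut list ranged from 8 to 15 higher members and the HLA list from 7 to 13, with 1 to 6 of the HLA list higher by at least 1 log2 unit. FPKM without counts limits what can be said of values near 0.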
